A study of Mus musculus with 9 samples.

Results

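Transcripts of the immunoglobulin heavy and light chains were followed in single cells of mouse bone marrow, through 8 gene symbols: Ighm and Ighd (the mu and delta heavy chain constant regions), Igkc and Igkj1 (the kappa light chain constant region and its first joining segment), Iglc1 and Iglc2 (lambda light chain constant regions), and Jchain with its older symbol Igj (the chain that joins secreted IgM and IgA into polymers). They were taken by symbol from the count tables of 9 libraries, which together held 15265 genes. Ighm, Igkc, Igkj1 and Iglc2 had counts, and the other 4 symbols had no row in any table. The marrow came from C57BL/6 mice aged 2 to 3 weeks, with 5 libraries of the genotype NG2-cre/Pot1a wt/wt (controls) and 4 of NG2-cre/Pot1a fl/fl. Both genotypes carry the Cre transgene, driven by the promoter of NG2 (Cspg4), a proteoglycan of mesenchymal and other stromal cells. In Pot1a fl/fl marrow the recombinase removes the telomere-binding protein POT1a from such cells and not, by this design, from B cells. Whole marrow had been run by Drop-seq, in which a bead in each droplet tags the RNA of a cell with a barcode, and each library was deposited with 100 barcodes.

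A B cell builds its receptor in steps. The heavy chain locus is rearranged first, in the pro-B cell, and the mu chain is then carried to the surface with a surrogate light chain made of Igll1 and a Vpreb protein. The cell divides, loses the surrogate chain and rearranges a kappa locus as a small pre-B cell, turning to lambda where kappa fails, so that mu precedes kappa in development. Mouse B cells carry kappa far more often than lambda, and abundant transcripts of Jchain mark plasma cells.

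The constant exons of Ighm (chr12:113418558-113422730, minus strand, GRCm38) and Ighd (chr12:113406604-113416324, minus strand) lie next to each other, so a delta transcript is made by splicing past the mu exons. Igkc is a single exon on the plus strand (chr6:70726435-70726966), downstream of 5 kappa joining segments. Iglc1 (chr16:19061618-19062071) and Iglc2 (chr16:19198396-19200351) lie on the minus strand of the lambda locus, and Jchain (chr5:88519809-88527891) on the minus strand of another chromosome. Counts in Drop-seq come from the 3′ ends of polyadenylated RNA, where a light chain transcript carries its constant region. The sequences below are those of the joining segments, shown because Igkj1 was counted apart from Igkc, and the last 60 coding bases of the light chain constant regions, shown because lambda genes can share reads. Capitals in a joining segment mark the codons of the Phe-Gly-X-Gly motif of J regions (TTCGGNNNNGGN or TTTGGNNNNGGN, searched on the sense strand).
Igkj1 (chr6:70722562-70722599): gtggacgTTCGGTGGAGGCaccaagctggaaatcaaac
Igkj2 (chr6:70722916-70722954): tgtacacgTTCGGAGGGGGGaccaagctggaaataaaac
Igkj3 (chr6:70723223-70723260): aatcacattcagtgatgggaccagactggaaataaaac
Igkj4 (chr6:70723548-70723585): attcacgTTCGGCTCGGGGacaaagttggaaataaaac
Igkj5 (chr6:70723886-70723923): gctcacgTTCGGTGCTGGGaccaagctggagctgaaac

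Of the 5 segments, Igkj3 alone lacked these letters. In the constant regions, capitals mark the last in-frame cysteine codon, which in light chains encodes the residue bonded to the heavy chain.
Igkc (chr6:70726695-70726754, plus strand): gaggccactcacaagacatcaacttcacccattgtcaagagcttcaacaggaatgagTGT
Iglc1 (chr16:19061755-19061814, minus strand): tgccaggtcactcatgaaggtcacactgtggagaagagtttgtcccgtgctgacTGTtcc
Iglc2 (chr16:19198539-19198598, minus strand): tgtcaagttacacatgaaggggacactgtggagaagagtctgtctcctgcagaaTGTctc
Iglc3 (chr16:19065368-19065427, minus strand): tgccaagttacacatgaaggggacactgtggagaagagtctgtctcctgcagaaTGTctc

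Over the aligned coding bases, Iglc2 was 96.2% identical to Iglc3, which had no row in the tables, and 73.8% identical to Iglc1. Counts of Iglc2 may therefore hold reads of Iglc3, and its values are uncertain in that respect. Igkc was 55.3% to 56.6% identical to the lambda genes.

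Library totals ran from 119459 to 465277 counts, and 899 of 900 barcodes were kept. Pot1a wt/wt 2 and 3 shared 19 barcodes, and no other pair of libraries shared any. Each of the 19 cells correlated best with the cell of its own barcode in the other library (Pearson r of log counts across genes 0.932 to 0.965, against 0.730 at most with any other cell), and 17 of 19 fell in the same class. Only 2 of the 19 were B-lineage-like, and the shared cells carried 12 and 16 Ighm counts and 14 and 15 Igkc counts in the 2 libraries. The sample labels name no mouse for a library, and the study used fewer mice than libraries, so p-values measure the spread between libraries, which may be partly technical. Pot1a itself had 1 to 15 counts a library and none in the 25 mesenchymal-like cells, so its loss could not be checked here.

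All kept cells were clustered without any immunoglobulin row, and 229 of 899 cells fell into B-lineage-like clusters. The 105 pro-B-like cells were led by Igll1, Vpreb1 and Dntt, with Igll1 detected in 82.9% of them and Vpreb1 in 77.1%. The 124 pre-B-like cells were led by Fcrla and Cd72, with Fcrla detected in 66.9%, Cd72 in 58.9% and Igll1 in 32.3%. Not all markers of the lineage followed the stage names. Rag1 was detected in 8.57% of pro-B-like and 5.65% of pre-B-like cells, and Ms4a1 in 10.5% and 9.68%. Il7r and Sox4 were higher in pre-B-like cells, by 1.32 ± 0.279 and 0.997 ± 0.275 on the log2 scale (± SE, edgeR, adjusted p = 0.000378 and 0.00502). Cd79a, the signalling partner of the receptor, was detected in 45.7% of pro-B-like and 46.0% of pre-B-like cells and in 2.24% of the 670 cells outside the lineage. A library held 8 to 19 pro-B-like and 6 to 19 pre-B-like cells. Of 7 plasma cell markers, Tnfrsf17 had no row, and B-lineage-like cells held 1 count of Prdm1, 2 of Derl3, 3 of Fkbp11, 7 of Sdc1, 26 of Xbp1 and 236 of Mzb1. Mzb1, a chaperone of immunoglobulin assembly, was detected in 63.8% of pro-B-like and 51.6% of pre-B-like cells.

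Ighm was the most widely detected of the 8 genes. Its whole-marrow counts, 1066 in all, were 161, 113, 113, 120 and 70 over Pot1a wt/wt 1 to 5. Pot1a fl/fl 1 to 4 had 119, 98, 52 and 220. B-lineage-like cells held 901 of these counts, and 208 of 229 cells had at least 1 (90.8%, 95% Wilson interval 86.4% to 93.9%). Outside the lineage 124 of 670 cells had a count (18.5%, 15.7% to 21.6%), at a median depth of 2396 counts a cell against 2114 in the lineage. Intervals and the limits given for counts of 0 cover counting error only.

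Igkc was less evenly spread. Of 558 counts in all, Pot1a wt/wt 1 to 5 held 154, 42, 28, 82 and 67. Pot1a fl/fl 1 to 4 held 45, 16, 34 and 90. B-lineage-like cells held 422 of them, in 111 of 229 cells (48.5%, 42.1% to 54.9%), against 91 of 670 cells outside the lineage (13.6%, 11.2% to 16.4%). A few cells carried much of the gene. A single pre-B-like cell of Pot1a wt/wt 4 held 42 of the 74 Igkc counts of B-lineage-like cells in that library, and the richest cell of a library held 14.7% to 56.8% of its B-lineage Igkc counts. By its own markers this cell, with 8 Ighm counts, scored highest for the plasma cell list.

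Igkj1 followed the B lineage more closely than Igkc did. Of its 51 counts, 50 lay in 31 B-lineage-like cells (13.5%, 9.70% to 18.6%) and 1 in a cell outside (0.149%, 0.0264% to 0.841%). By library, the whole-marrow counts ran 18, 4, 1, 5 and 4 over Pot1a wt/wt 1 to 5, and 5, 0, 1 and 13 over Pot1a fl/fl 1 to 4. Of the 31 B-lineage-like cells with Igkj1, 30 also had Igkc. For every 100 Igkc counts, B-lineage-like cells had 11.8 Igkj1 counts and the cells outside had 0.735. The 136 Igkc counts outside the lineage thus came with Igkj1 in 1 library of 9, while the B-lineage-like cells held Igkj1 in 8 of 9. The source of the Igkc counts outside the lineage was not tested.

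Iglc2 was rare. Of 39 counts in all, the control libraries 1 to 5 held 18, 2, 0, 3 and 3, and Pot1a fl/fl 1 to 4 held 2, 2, 7 and 2. It was found in 10 of 229 B-lineage-like cells (4.37%, 2.39% to 7.85%) and in 13 of 670 other cells (1.94%, 1.14% to 3.29%). These are pooled counts of cells, and their difference was not tested over libraries. A single B-lineage-like cell of Pot1a wt/wt 1, which had 5 Ighm counts, 1 Igkc count and none of the surrogate light chain, held 11 of the 39. By its own markers this cell scored highest for the erythroid list. The next richest cell had 4 Iglc2 counts with 1 of Igkc and none of Ighm, in Pot1a fl/fl 3, and scored highest for the granulocyte list.

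Ighd, Iglc1, Jchain and Igj are counted as 0 in all 899 cells. For a gene present in the annotation, 0 of 899 cells would allow a share of up to 0.334% of all cells, and 0 of 229 a share of up to 1.31% of B-lineage-like cells. These limits concern cells with a count, not cells that express the gene. The annotation behind the tables is not given in the sources used here, so a missing row could also mean that the symbol was not annotated.

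Levels per set of cells placed Ighm and Igkc in the lineage (CPM, counts scaled to a total of 1000000 in those cells, mean ± SD over libraries). Ighm had 1998 ± 515 CPM in pre-B-like cells (n = 9) and 1028 ± 288 in pro-B-like cells (n = 9), followed by 167 ± 100 in monocyte/macrophage-like, 162 ± 286 in mesenchymal-like (n = 7), 117 ± 117 in granulocyte-like and 77.9 ± 76.6 in erythroid-like cells. The unnamed clusters led by Mcpt8 and Ms4a4b and by Mt2 and Fam132a had 146 ± 49.5 and 54.2 ± 46.8. The steps from pre-B-like to pro-B-like and from pro-B-like to monocyte/macrophage-like cells were positive in 9 of 9 libraries (exact sign-flip permutation test within libraries, two-sided, p = 0.00391 each, the smallest possible, adjusted p = 0.0137 over 7 steps). The remaining neighbours in this order did not differ beyond their spread (adjusted p = 0.246 to 0.969 in the same exact test).

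**Figure D1:**
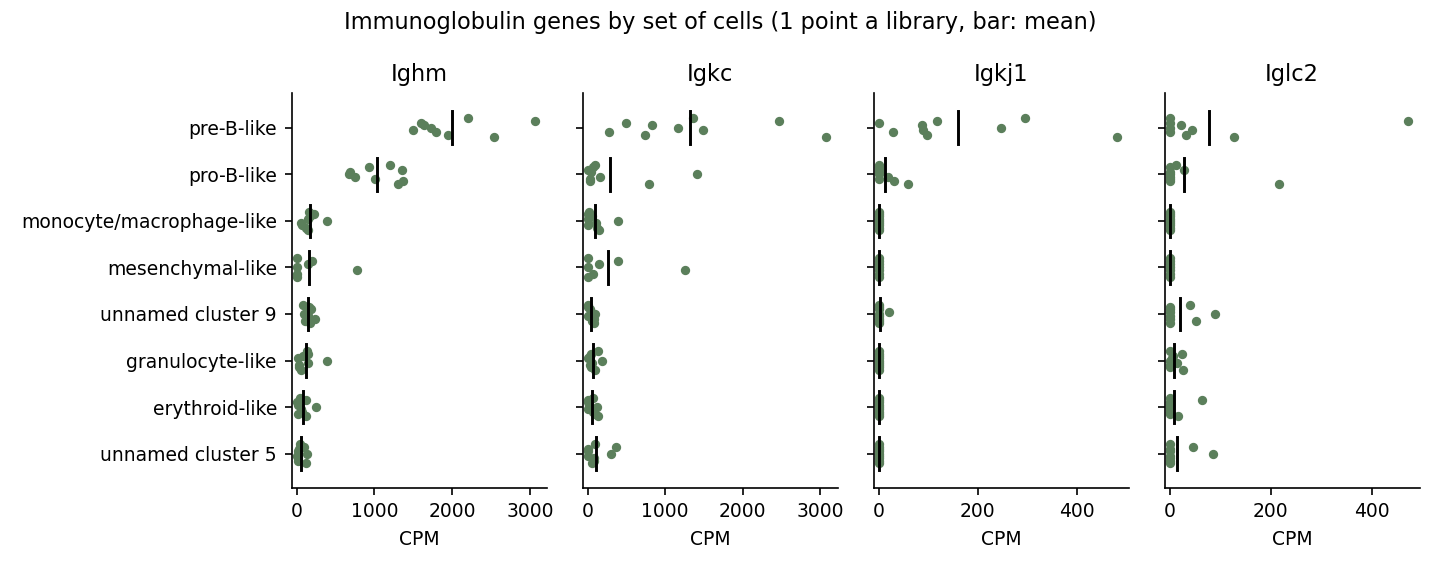
CPM of Ighm, Igkc, Igkj1 and Iglc2 (linear x axes, a range for each gene) in 8 sets of cells, ordered by mean Ighm, with 1 point for each library and a bar at the mean. Ighm was at least 1491 CPM in pre-B-like cells of all 9 libraries, while Igkc ranged there from 283 to 3075 CPM and Igkj1 was at 0 in nearly all libraries outside the B lineage.

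Igkc had 1325 ± 921 CPM in pre-B-like and 294 ± 487 in pro-B-like cells, then 268 ± 457 in mesenchymal-like cells (n = 7) and 41.95 ± 37.1 to 112 ± 134 in the other 5 sets. The pre-B-like level was above the pro-B-like level in 8 of 9 libraries (exact sign-flip test, p = 0.00781, adjusted p = 0.0547 over 7 steps), and no Igkc step passed (the later steps had adjusted p = 0.711 to 0.938, same exact test). Against all cells outside the lineage, which had 87.3 ± 72.4 CPM, pre-B-like cells were higher in 9 of 9 libraries (adjusted p = 0.00521 over 8 comparisons, exact sign-flip test) and pro-B-like cells in 5 of 9 (adjusted p = 0.230, same test). For Ighm both stages were above the outside level of 102 ± 78.2 CPM in 9 of 9 libraries (adjusted p = 0.00521, same exact test).

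Between the stages, both chains rose. Ighm was higher in pre-B-like than in pro-B-like cells of the same library by 1.01 ± 0.15 on the log2 scale (± SE, edgeR quasi-likelihood test with a library term, Benjamini-Hochberg adjusted p = 3.1e-06 over 630 genes). Igkc was higher by 2.80 ± 0.33 (edgeR, adjusted p = 1.4e-07). Both tested genes were thus among the genes called higher, against 24.4% of all genes tested and 40.2% called in either direction. Igkj1 and Iglc2 were below the filter on low counts. Without the filter Igkj1 was higher by 3.22 ± 0.63 (edgeR, adjusted p = 4.1e-05), and Iglc2 gave 0.63 ± 0.76 (edgeR, adjusted p = 0.922). Immunoglobulin rows had no part in forming the stages, but the stages rest on other genes of the same cells that differ along the same path.

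RNA of red cells, mitochondrial RNA, Malat1 (a nuclear RNA) and genes of cell division also moved with stage. Of 19 erythroid markers, 5 were tested and 4 were higher in pre-B-like cells, Hba-a2 by 1.37 ± 0.29, Hba-a1 by 1.23 ± 0.26, Hbb-bt by 1.02 ± 0.24 and Hbb-bs by 0.92 ± 0.18 on the log2 scale (edgeR, adjusted p = 0.000168 to 0.000937). The summed level of the erythroid list was higher in pre-B-like cells in 9 of 9 libraries, at 2142 to 35626 CPM against 2108 to 27372 CPM in pro-B-like cells, and none of the 19 markers was at 0 in the lineage. Of 26 mitochondrial genes, 9 were tested and 4 were higher, mt-Rnr1 most, by 1.43 ± 0.20 (edgeR, adjusted p = 1.5e-06). The 9 ran from -0.27 to 1.43, and mt-Nd2 (-0.27), mt-Nd1 (-0.23) and mt-Cytb (0.06) were among those not called. The mitochondrial share was 1.66% to 3.85% in pre-B-like against 1.31% to 2.98% in pro-B-like cells. Malat1 was higher by 1.22 ± 0.14 (edgeR, adjusted p = 7.3e-08). Among genes of cell division, Cenpf was higher by 1.31 ± 0.21, Ccnb2 by 1.29 ± 0.235, Mki67 by 1.101 ± 0.177 and Top2a by 0.776 ± 0.141 (edgeR, adjusted p = 1.1e-05 to 6.4e-05). Pcna (0.113 ± 0.164) and Mcm7 (0.483 ± 0.24) were not called, and Ccnd2 was lower, at -2.802 ± 0.391 (edgeR, adjusted p = 1.6e-06). Whether dividing and small pre-B cells were mixed in the pre-B-like set was not tested. Over all 630 genes tested, 24.4% were called higher and 40.2% in either direction. Of the granulocyte list 5 genes were tested and 0 were called. The part of these differences in those of Ighm and Igkc was not tested.

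The counts by library show how far this was shared. In pro-B-like cells Igkc had 40, 1, 1, 8 and 19 counts over control libraries 1 to 5, and 2, 0, 1 and 8 over Pot1a fl/fl 1 to 4. In pre-B-like cells it had 96, 23, 10, 66 and 19, and 38, 9, 21 and 60. Pot1a wt/wt 1 and 5 stood above the other libraries in pro-B-like cells. In Pot1a wt/wt 1 the 40 counts lay in 10 of 12 cells, with 20 in a single cell, and in Pot1a wt/wt 5 the 19 counts lay in 3 of 12 cells, with 13 in a single cell. Ighm in pro-B-like cells had 66, 44, 37, 38 and 9 counts in the controls and 28, 47, 12 and 97 in Pot1a fl/fl, and in pre-B-like cells 79, 60, 63, 66 and 28, and 75, 29, 26 and 97. Without the cell richest in Igkc of each library and stage, the stage difference was 3.37 ± 0.35 for Igkc and 0.93 ± 0.15 for Ighm (edgeR, adjusted p = 1.2e-08 and 1.5e-05). The cells left out were chosen by their Igkc counts, and where pro-B-like cells of a library held 1 Igkc count this left 0. The Igkc value of this setting is therefore no independent check of the stage difference.

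Kappa against mu counts in the same cells changed with stage. The ratio was taken as log2 of summed Igkc + 1 over summed Ighm + 1 and is compared between sets of cells only, since 3′ counts of different genes are not levels on a common scale. For every 100 Ighm counts, pro-B-like cells held 21.2 Igkc counts and pre-B-like cells 65.4. Per library the log2 ratio was -2.84 ± 2.02 (SD, n = 9) in pro-B-like and -0.85 ± 0.87 in pre-B-like cells, a difference of 1.99 ± 1.57 (SD) that was positive in 8 of 9 libraries (exact sign-flip permutation test, two-sided, p = 0.0117, adjusted p = 0.0117 over 4 stage measures). Differences ran from -1.54 to 4.00. The highest was that of Pot1a fl/fl 2, which had 0 Igkc counts in pro-B-like cells, so its size depends on the 1 added to each sum. With 0.5 added instead, the mean difference over libraries was 2.25. The exception was Pot1a wt/wt 5, whose ratio was 1 in pro-B-like and -0.54 in pre-B-like cells, and which had the fewest Ighm counts in pro-B-like cells. Without this library the mean difference was 2.43.

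**Figure D2:**
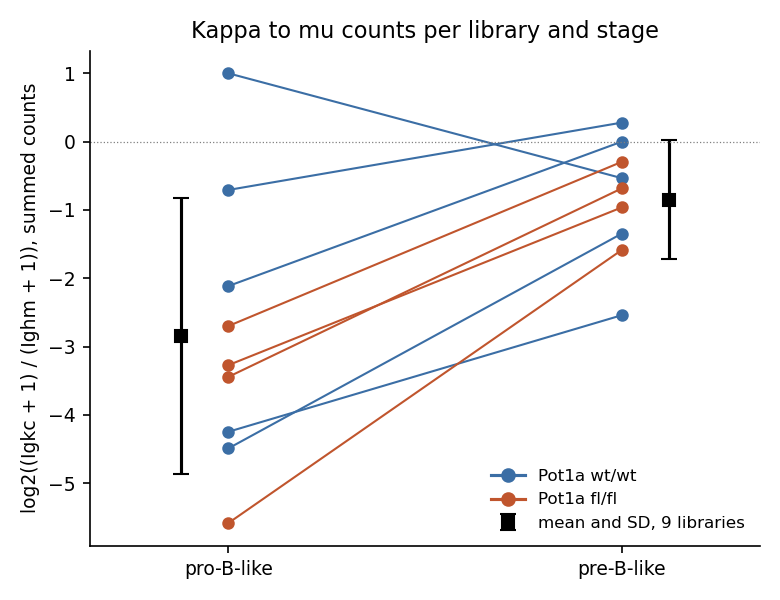
The log2 ratio of summed Igkc + 1 to summed Ighm + 1 (y axis) in pro-B-like and pre-B-like cells, with a line for each library coloured by genotype and squares with bars for the mean and SD of 9 libraries. The line rises in 8 libraries, all 4 Pot1a fl/fl libraries among them, and falls in Pot1a wt/wt 5.

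The 3 libraries with the highest ratio in pre-B-like cells were Pot1a wt/wt 1 (0.28), Pot1a wt/wt 4 (0.00) and Pot1a fl/fl 3 (-0.30), and the lowest was Pot1a wt/wt 3 (-2.54). When the stages were instead split by the surrogate light chain (cells with no count of Igll1 or Vpreb1 against cells with at least 1), the ratio was higher in the cells without it in 9 of 9 libraries, by 1.13 to 3.40 (exact sign-flip test, p = 0.00391). In Pot1a wt/wt 5 the cells with the surrogate chain held 2 Igkc and 17 Ighm counts, and those without held 36 and 20. In Pot1a fl/fl 2 only 1 cell lacked the surrogate chain, with 3 Igkc and 3 Ighm counts. Its difference of 3.40 thus rests on a single cell, as the minimum of 5 cells per stage was not applied to this split.

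At full depth, single pro-B-like cells most often had Ighm without Igkc, and single pre-B-like cells most often had both. A missing count may reflect depth. Thinned to equal depth, 63.99% of pre-B-like cells kept Ighm, 34.86% Igkc and 24.63% both (means of 9 libraries), so both together was no longer the commonest pattern. Whether the counted transcripts came from rearranged loci was not tested. Of 105 pro-B-like cells, 68 had Ighm only, 22 had both, 5 had Igkc only and 10 had neither. Of 124 pre-B-like cells, 38 had Ighm only, 80 had both, 4 had Igkc only and 2 had neither. Igkc exceeded Ighm in 10 pro-B-like and 30 pre-B-like cells, and at least 5 Igkc counts were seen in 5 and 24. Among cells with Igkc the median was 1 count in pro-B-like and 3 counts in pre-B-like cells. The median Ighm count was 3 and 3.5. Within a stage the 2 genes were only weakly related across cells (Pearson r of log-scaled counts 0.11 over 105 pro-B-like and 0.19 over 124 pre-B-like cells, which share libraries and depth).

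**Figure D3:**
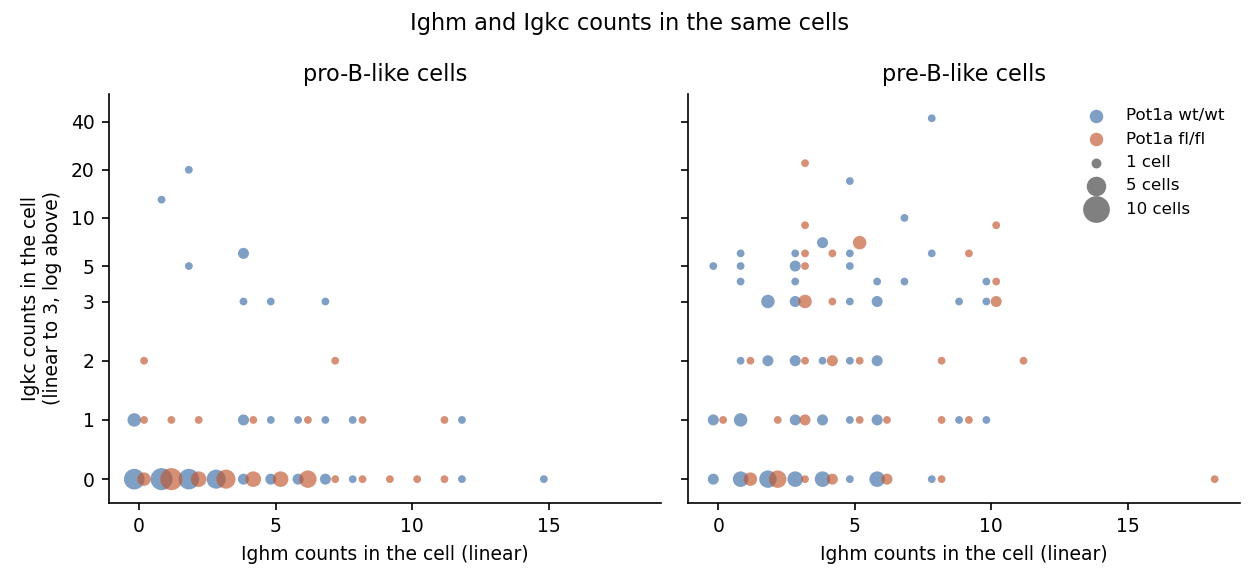
Igkc counts (y axis, linear to 3 and logarithmic above) against Ighm counts (x axis, linear, shifted slightly by genotype) in single pro-B-like and pre-B-like cells, with the area of a circle giving the number of cells. Most pro-B-like cells lie at 0 Igkc along the whole range of Ighm, while 84 of 124 pre-B-like cells lie above it, up to 42 counts.

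Cells were also divided by surrogate light chain transcripts inside each stage. Igkc was detected in 16 of 90 pro-B-like cells with Igll1 or Vpreb1 (17.8%) and in 11 of 15 without (73.3%). The cells without were mostly control cells, with Igkc in 9 of 11, against 2 of 4 in Pot1a fl/fl. Pot1a wt/wt 1 alone held 10 of the 27 pro-B-like cells with Igkc. Among pre-B-like cells it was detected in 30 of 51 with the surrogate chain (58.8%) and in 54 of 73 without (74.0%). So 46 of 141 B-lineage-like cells with a surrogate chain count also had Igkc. These are pooled counts of cells, and their differences were not tested over libraries.

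Detection depends on depth, so each cell was also thinned to 500 counts, with the expected share of cells that keep a count. At equal depth 64.0 ± 7.51% of pre-B-like and 43.1 ± 12% of pro-B-like cells had Ighm (mean ± SD, n = 9), against 5.29 ± 4.34% of the cells outside the lineage. For Igkc the shares were 34.9 ± 16.7%, 8.94 ± 12.5% and 3.9 ± 3.7%, at median depths before thinning of 1930, 2652 and 2396 counts. The unthinned shares with Igkc were 65.7 ± 18.5%, 24.3 ± 24.4% and 13.97 ± 8.66%. Pre-B-like cells exceeded pro-B-like cells in 9 of 9 libraries for Ighm, for Igkc and for both genes in the same cell, by 20.9, 25.9 and 19.3 percentage points (exact sign-flip permutation test, p = 0.00391 each, adjusted p = 0.00521 over 4 measures). In pro-B-like cells the share with Igkc was above that outside the lineage in 6 of 9 libraries (adjusted p = 0.152, exact test), so at this depth the level of Igkc in pro-B-like cells was not distinguished from that of cells outside the lineage.

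**Figure D4:**
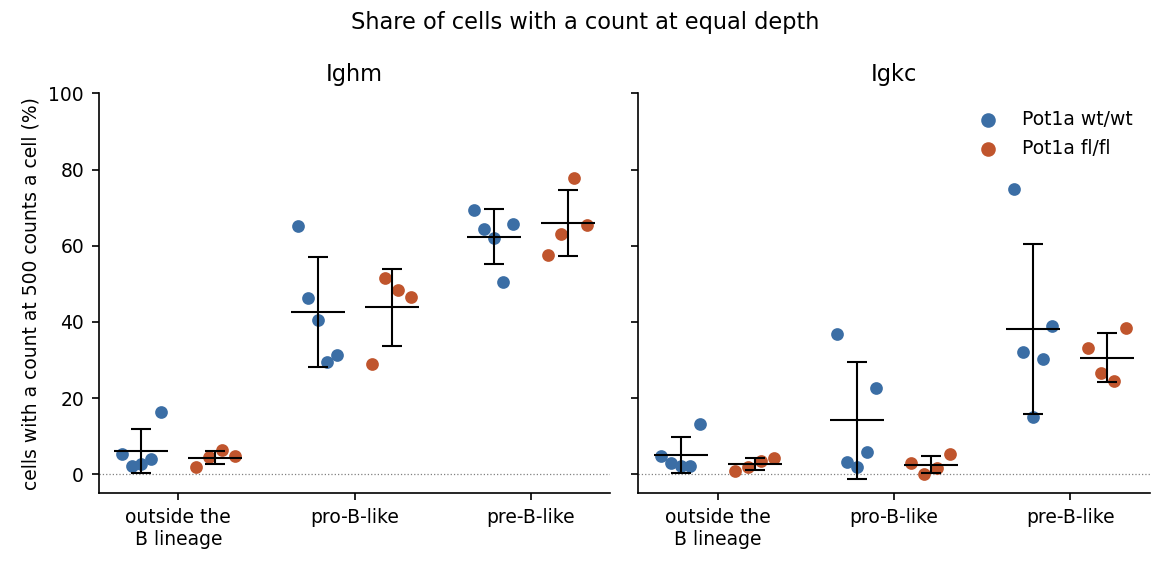
Percent of cells with an Ighm or Igkc count (y axis) at 500 counts a cell, outside the B lineage and in pro-B-like and pre-B-like cells, with 1 point a library coloured by genotype and bars at the mean ± SD (5 Pot1a wt/wt and 4 Pot1a fl/fl libraries). For Ighm all pro-B-like points lie above the points outside the lineage, while for Igkc 2 control libraries stand apart from the other 7 in pro-B-like cells.

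The genotype comparison asks whether loss of POT1a in the stroma goes with a lower share of immunoglobulin counts in the profiled marrow cells or B-lineage-like cells. CPM is such a share, so the number of cells in the marrow does not enter. The study reported fewer marrow cells and a reduced B-cell lineage in the Pot1a fl/fl mice. Here B-lineage-like cells numbered 134 over 5 control and 95 over 4 Pot1a fl/fl libraries. No member passed the test. In whole marrow Ighm had 440 ± 126 CPM in Pot1a wt/wt (n = 5) and 403 ± 135 in Pot1a fl/fl (n = 4), a log2 difference of -0.10 ± 0.27 (± SE, edgeR, adjusted p = 0.948 over 4559 genes). Igkc had 309 ± 224 and 168 ± 109 CPM, a log2 difference of -0.92 ± 0.53 (edgeR, adjusted p = 0.699). Without Pot1a wt/wt 1 it was -0.43 ± 0.49 (edgeR, adjusted p = 0.789). Of all genes tested, 0.0658% were called, 3 higher and 0 lower in Pot1a fl/fl, with 364 at an unadjusted p under 0.05. With Pot1a wt/wt 2 and 3 taken as 1 library, the log2 difference of Igkc was -1.13 ± 0.52 (edgeR, unadjusted p = 0.0424, adjusted p = 0.835). The unadjusted edgeR p of Igkc was 0.0982 with all libraries and 0.0213 to 0.398 with a library left out.

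In B-lineage-like cells Ighm had 1771, 1649, 1386, 1095 and 1249 CPM over control libraries 1 to 5, and 1187, 1441, 1769 and 1554 over Pot1a fl/fl 1 to 4. The ranges overlapped throughout, and the log2 difference was 0.02 ± 0.22 (edgeR, adjusted p = 0.999 over 1507 genes). Igkc had 1661, 381, 152, 779 and 1282 CPM in the controls and 461, 171, 1024 and 545 in Pot1a fl/fl. The controls spanned the whole Pot1a fl/fl range, with Pot1a wt/wt 1 and 5 above it and Pot1a wt/wt 3 below it. The log2 difference was -0.75 ± 0.51 (edgeR, adjusted p = 0.975), and 0.0664% of genes were called, 1 higher and 0 lower, with 53 at an unadjusted p under 0.05. With Pot1a wt/wt 2 and 3 as 1 library it was -0.96 ± 0.47 (edgeR, adjusted p = 0.997), and without the cell richest in Igkc of each library and stage -0.54 ± 0.55 (edgeR, adjusted p = 0.997). Without Pot1a wt/wt 1 it was -0.28 ± 0.50 (edgeR, adjusted p = 0.983).

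**Figure D5:**
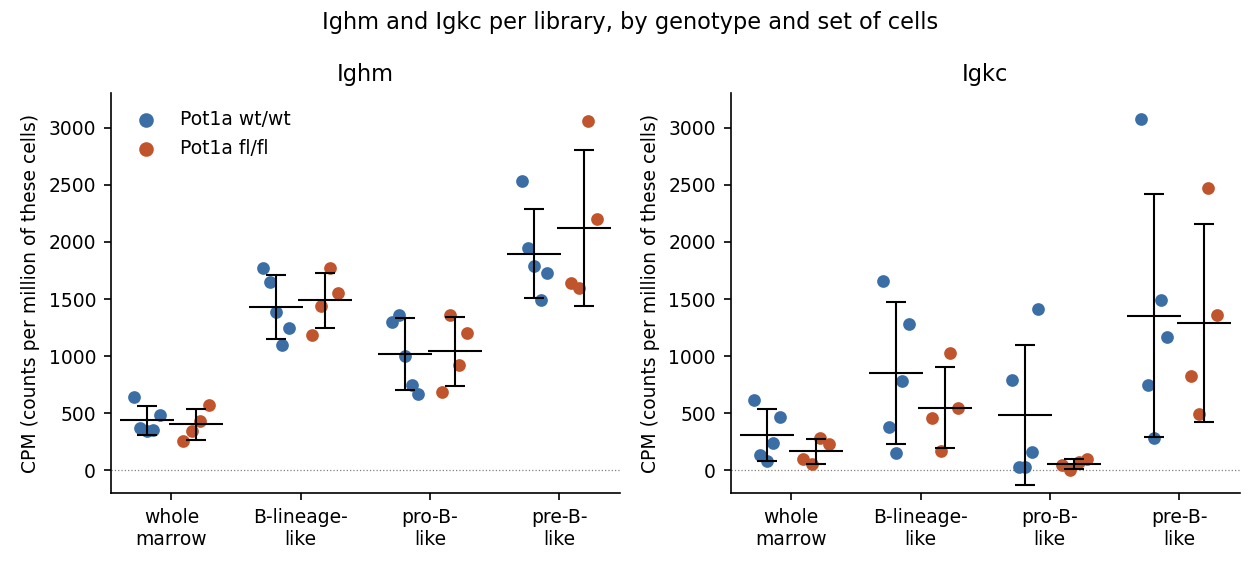
CPM of Ighm and Igkc (y axes) per library in whole marrow, B-lineage-like, pro-B-like and pre-B-like cells, with 1 point a library coloured by genotype and bars at the mean ± SD of 5 Pot1a wt/wt and 4 Pot1a fl/fl libraries. Genotypes overlap in every set, and the 4 Pot1a fl/fl libraries have 0 to 99.1 CPM of Igkc in pro-B-like cells, where 2 controls reach 789 and 1417.

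The genes with fewest counts gave no call either. Without the filter, Igkj1 in B-lineage-like cells differed by -0.67 ± 0.56 and Iglc2 by -0.84 ± 0.75 on the log2 scale (edgeR, adjusted p = 0.713 for both). Igkj1 was found in 18 B-lineage-like cells of the controls and 13 of Pot1a fl/fl. All 4 pro-B-like cells with Igkj1 were control cells.

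Kappa to mu in B-lineage-like cells had a log2 ratio of -1.14 ± 1.37 in Pot1a wt/wt (SD, n = 5) and -1.64 ± 0.93 in Pot1a fl/fl (n = 4). The difference was -0.50 with a 95% interval from -2.66 to 1.60 (exact permutation test over 126 splits, two-sided, p = 0.556, adjusted p = 0.833 over 3 sets of cells). In pre-B-like cells alone it was -0.05 (-1.50 to 1.58, exact permutation p = 0.944), with means of -0.83 ± 1.14 and -0.88 ± 0.54. In pro-B-like cells it was -1.64 (-4.79 to 1.69, exact permutation p = 0.270, adjusted p = 0.810), with 69 Igkc counts in the controls and 11 in Pot1a fl/fl. The intervals leave room for a large difference in either direction. With Pot1a wt/wt 2 and 3 as 1 library the difference in B-lineage-like cells was -0.90 (exact permutation p = 0.314), without Pot1a fl/fl 2 it was -0.065, and with cells assigned by their own markers -0.038.

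Shares of B-lineage-like cells with a count at equal depth did not pass either. Ighm was kept in 53.7 ± 9.62% of control and 54.6 ± 6.44% of Pot1a fl/fl cells, a difference of 0.90 percentage points (95% interval -12.3 to 13.4, exact permutation p = 0.873). Igkc was kept in 28.4 ± 19.7% and 15.9 ± 5.78%, a difference of -12.5 points (-39.4 to 9.66, exact permutation p = 0.333, adjusted p = 0.5 over 3 shares). Both genes were kept in 19.4 ± 15.1% and 10.7 ± 2.30% (-8.76 points, -29.4 to 7.14, exact permutation p = 0.333). Thinning left out 3 B-lineage-like cells, all of Pot1a fl/fl. With Pot1a wt/wt 2 and 3 as 1 library the Igkc difference was -15.9 points (exact permutation p = 0.171), and without Pot1a wt/wt 1 it was -4.58 points. Unthinned, 50.9 ± 24.0% of control and 40.2 ± 18.4% of Pot1a fl/fl cells had Igkc, at median depths of 1936 and 2607 counts. The stage difference of the kappa to mu ratio was 1.28 ± 1.76 in the controls and 2.87 ± 0.78 in Pot1a fl/fl, which did not differ by the exact permutation test (p = 0.135).

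Genes that act with the receptor chains gave no call in either genotype test. Of 15 genes of the pre-B receptor and of recombination, 7 were measured in B-lineage-like cells and 6 were positive, with a median log2 difference of 0.17 against -0.01 over all 1507 genes. Its largest values were Erg 0.72 ± 0.49, Igll1 0.27 ± 0.26 and Vpreb1 0.22 ± 0.33 (edgeR, adjusted p = 0.975 each). Of 17 receptor partners and signalling genes, 7 were measured and 6 were negative, with a median of -0.28. Cd79b, the beta signalling chain of the receptor, gave -0.47 ± 0.37, the kinase Btk -0.37 ± 0.29 and the kinase Syk -0.30 ± 0.46 (edgeR, adjusted p = 0.975 each).

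Of 16 regulators of the light chain loci, all 5 that were measured in B-lineage-like cells were negative, with a median of -0.18 against -0.01 over all 1507 genes. The signs within the lists were not tested, and the share of negative genes over all genes tested was not counted. Nfkbia, an inhibitor of NF-kappaB, gave -0.64 ± 0.38, Tcf12 -0.24 ± 0.40 and Pax5 -0.18 ± 0.30 (edgeR, adjusted p = 0.975 each). Of 11 genes of immature and mature B cells, 2 were measured, Cd37 at -0.52 ± 0.32 and Cd52 at 0.28 ± 0.42. Of 10 genes of secretion and plasma cells, 3 were measured and all were negative, with Pou2af1, a coactivator at immunoglobulin promoters, at -0.56 ± 0.28, Mzb1 at -0.17 ± 0.29 and the chaperone Hsp90b1 at -0.16 ± 0.27 (edgeR, adjusted p = 0.975 each).

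In whole marrow none of the 5 lists held a called gene. Their medians were 0.05 for the pre-B receptor (7 measured), -0.18 for the receptor partners (10), 0.10 for the light chain regulators (11), -0.44 for immature and mature B cells (6) and -0.17 for secretion (4), against -0.002 over 4559 genes. In the same order, positive and negative genes numbered 4 and 3, 2 and 8, 6 and 5, 1 and 5, and 1 and 3. The largest values in them were Ms4a1 (CD20) at -2.13 ± 0.48, Spib at -1.26 ± 0.49, Cd74 at -1.25 ± 0.61 and Xbp1 at 1.03 ± 0.34 (edgeR, adjusted p = 0.269, 0.497, 0.635 and 0.42). Whole-marrow values also hold counts of cells outside the lineage. B-lineage-like cells had 26 of 137 Xbp1 counts and 81 of 140 Ms4a1 counts.

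Over all 899 cells, the genes most like Ighm by Pearson correlation of log-scaled counts, among 8068 genes in at least 20 cells, were Vpreb3 (0.65), Ptprcap (0.57), Chchd10 (0.54), Cd79b (0.50) and Myl4 (0.49). Those most like Igkc were Igkj1 (0.46), Fcrla (0.46), Ighm (0.46), Atp1b1 (0.44) and Fam129c (0.44). These values describe cells that share libraries and depth. How far they reflect the contrast of B-lineage-like with other cells, or that between stages, was not tested.

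A further 65 immunoglobulin rows held 163 counts in all, of which 138 were in B-lineage-like cells. The 23 kappa variable genes had 59 counts, 33 in pre-B-like and 17 in pro-B-like cells. The 27 heavy chain variable genes had 50, with 14 in pre-B-like and 31 in pro-B-like cells, a difference between the kinds of row that was not tested. The 4 kappa joining segments other than Igkj1 had 12 counts, 9 of them in pre-B-like and 0 in pro-B-like cells. The rows with most counts were Igkv12-89 (13), Ighv14-2 (12) and Iglv1 (9). Ighg2b, an IgG constant region, was the only other heavy chain constant row and had 5 counts, all in pro-B-like cells.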

How the data were processed

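Bone marrow cells had been profiled by Drop-seq in 9 libraries. Reads had been mapped by the authors with STAR (mm10) and summed per gene by the McCarroll laboratory software for Drop-seq, of versions not given in the sources used here. Deposited values are whole-number counts per gene and barcode. The study's methods call them read counts. It is not stated whether reads of the same molecule were collapsed, or how 100 barcodes a library were chosen. The number of per-sample columns left unused was 0. Sequences and positions are from GENCODE M21 (GRCm38, the same assembly as mm10), aligned globally with scores of 1, -1 and -2 for match, mismatch and gap.

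Barcodes with at least 200 counts and at most 25% mitochondrial counts were kept. Scrublet in scanpy 1.11.5 marked 39 doublets, which stayed in and were removed in an alternative. Clusters were built in Seurat 5.3.0 (anchor integration, 2000 variable genes, 20 components, resolution 1) without the 69 immunoglobulin rows, and named by the class with most markers among the 50 genes of highest fold (at least 3). The members, lists and naming rule were chosen with earlier results of these data known. Named genes were all 8 symbols, the 5 genes most correlated with Ighm and with Igkc, up to 3 genes of each list with the largest difference (in whole marrow, 4 over all lists), and the 3 other immunoglobulin rows with most counts. Gene tests used edgeR 4.0.16 (TMM, filterByExpr, quasi-likelihood, Benjamini-Hochberg over all genes tested) on counts summed per library, or per library and stage. The stage test needed at least 5 cells per stage, a minimum not applied to the ratio split by surrogate light chain. Ratios and shares were tested by exact permutation of libraries between genotypes or exact sign-flips within libraries. The gene tests were tested on simulated data. Alternatives were DESeq2 1.42.0 and its size factors, no filter, a replicate block, leaving out each library, merged Pot1a wt/wt 2 and 3, other cell assignments, pseudocounts and thinning depths, and, added after the data were seen, leaving out the cells richest in Igkc. The pair was merged in genotype comparisons only.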

Additional observations from a re-analysis of the deposited data

Results flagged for a closer look

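Iglc2 in whole marrow was 58.6 CPM in Pot1a fl/fl 3, against 4.30 to 7.12 in the other 3 Pot1a fl/fl libraries, so this library lay far from its group. The value rests on 7 counts, 4 of them in a single cell of a B-lineage-like cluster that scored highest for the granulocyte list by its own markers, in the library with the lowest total. Among 32 groups of libraries examined, chance marks about 1 in 20.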

How the results depend on the processing

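The stage differences kept their direction and stayed past the threshold under all 13 alternatives for Ighm (0.77 to 1.05) and Igkc (2.50 to 3.37) and all 12 for the kappa to mu ratio (1.74 to 2.43). The highest Igkc value, 3.37, came from leaving out the cells richest in Igkc. That setting chose cells by the counts tested, so it is no independent check for Igkc or the ratio. Leaving out each library gave 0.91 to 1.05, 2.50 to 3.27 and 1.74 to 2.43. The genotype differences of Igkc stayed negative without passing under every alternative, with leave-one-out ranges of -1.26 to -0.43 in whole marrow and -1.05 to -0.28 in B-lineage-like cells, -0.98 to -0.06 for the ratio and -17.6 to -4.58 points for the share of cells with Igkc. These differences were smallest without Pot1a wt/wt 1 in whole marrow, in B-lineage-like cells and for the share, and without Pot1a fl/fl 2 for the ratio. Without the filter, Igkc in whole marrow had an unadjusted p of 0.000506 and an adjusted p of 0.0821, the lowest of its alternatives, by edgeR. With cells assigned by their own markers, Igkc in B-lineage-like cells gave -0.34 and the ratio -0.038. Ighm changed sign between genotypes with the library left out (-0.27 to 0.13 in whole marrow, -0.068 to 0.12 in B-lineage-like cells) and without the filter in B-lineage-like cells (-0.017), always within its standard error of 0; the cause was not tested. Genes called in whole marrow numbered 3, 6 by DESeq2, 69 without the filter, 1 with Pot1a wt/wt 2 and 3 as 1 library and 1 to 3 without a library (1 when Pot1a fl/fl 2 or any control library but the fourth was left out). In B-lineage-like cells they numbered 1, 14 without the filter, 0 with the pair as 1 library, 0 without the cells richest in Igkc and 0 to 1 without a library (0 without any of Pot1a wt/wt 1 to 3 or Pot1a fl/fl 1 to 4). Over stages they numbered 253, and 70 with stages by surrogate light chain. The replicate numbers did not pair the libraries (correlations of same-numbered libraries -0.22 to 0.06), and the replicate block, over numbers 1 to 4 and so without Pot1a wt/wt 5, gave 1 call in whole marrow and 6 in B-lineage-like cells, with Igkc at -0.55 and -0.40, Ighm at -0.01 and 0.02, and -0.21 for the ratio and -11.7 points for the share. Without Pot1a wt/wt 5 and with no block, there was 1 call in each, Igkc was at -0.73 and -0.59, and the ratio and share were the same. Counts of the members were low: 80 Igkc counts in all pro-B-like cells, 51 of Igkj1 and 39 of Iglc2 in all cells.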
